A study of Mus musculus with 2 samples.

Results

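MicroRNA loci are genes that the mouse annotation GENCODE M21 places in the class miRNA. Of 2202 such loci among the 55450 genes of the deposited tables, 184 are described here. They were chosen by a rule on measured values, namely at least 20 estimated counts in both libraries, so their estimated counts are given as a description with no test. An estimated count is the number of reads that the authors' quantification of reads against transcripts assigned to a transcript. All 184 have 1 annotated transcript, of 54 to 204 bases with a median of 96. Such lengths are nearer to a precursor hairpin than to a whole primary transcript, but length alone does not show a hairpin. The symbol starts with Mir for 35 of them and with Gm, a placeholder for a predicted gene, for the other 149.

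The RNA came from bone marrow-derived macrophages of strain C57BL/6J, primary cells grown from mouse marrow, which had received 100 ng/ml lipid A for 50 minutes. Lipid A, the part of lipopolysaccharide that sits in the outer membrane of bacteria, is recognised by the macrophage receptor TLR4. Total RNA of the nucleoplasmic fraction was depleted of ribosomal RNA and sequenced as 2 biological replicates of 1 group, with 500 ng of input RNA for replicate 1 and 1 µg for replicate 2. The source label says nucleus where the description says nucleoplasm, the sex and age of the animals were not collected, and both libraries carry the same donor label. Untreated cells were not analysed here, so the values describe a state and not a response to lipid A, and 2 libraries of 1 group allow no test. The tables hold 19674642 estimated counts over genes in replicate 1 and 28967125 in replicate 2, and a count of 0 allows up to 0.152 and 0.104 counts per 1000000, counting error only.

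A microRNA begins as a hairpin inside a long nuclear transcript. The nuclear enzyme Drosha and its partner Dgcr8 cut the hairpin out, Xpo5 carries it to the cytoplasm, and Dicer1 trims it to the mature strand that guides an Argonaute protein to messenger RNAs through its seed. Many hairpins lie in introns of protein-coding or long noncoding genes, called hosts, and others in transcripts of their own. Reads counted on a hairpin in nuclear RNA can come from the primary transcript, a host intron or the excised precursor, and these cannot be told apart here. Nor can more cells with a transcript be told from more RNA in each cell.

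Several loci known from macrophages are among the 184, and the mature strands they encode show which are related. The sequences are from RefSeq on GRCm38.p6, in which 27 of the 184 matched a hairpin by symbol, and capitals mark the seed, bases 2 to 8. The first pair share a seed, which 3 of the 1674 distinct mature sequences in that table carry, and the others differ from it and among themselves.
miR-221-3p: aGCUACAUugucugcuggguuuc
miR-222-3p: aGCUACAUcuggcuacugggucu
miR-23a-3p: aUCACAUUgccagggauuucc
miR-27a-3p: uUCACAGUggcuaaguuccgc
miR-29a-3p: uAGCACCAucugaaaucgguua
miR-15a-5p: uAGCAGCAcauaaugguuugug
miR-511-3p: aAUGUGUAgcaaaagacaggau

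The loci with the highest counts have another kind of sequence. Gm23935 (chr16:11144125-11144181, plus strand), Gm24270 (chr9:56223715-56223771, minus) and Gm24245 (chr4:139338304-139338360, plus) have the same 57 letters, and Gm24187 (chr13:9834469-9834525, minus) and Gm23388 (chr8:85112012-85112068, minus) are near copies of equal length. Capitals mark the bases that differ from Gm23935, which from the 5′ end are G11A in Gm24187 and G2T, C16G, G21T and G48T in Gm23388.
Gm23935: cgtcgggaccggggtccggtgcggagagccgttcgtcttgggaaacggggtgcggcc
Gm24187: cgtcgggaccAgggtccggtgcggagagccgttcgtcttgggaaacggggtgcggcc
Gm23388: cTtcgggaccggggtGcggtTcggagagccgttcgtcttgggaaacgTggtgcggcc

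Yet another kind is made of short repeats. Gm22071 (chr2:91407054-91407136, minus) is largely TG and CA repeats, and capitals mark the bases that lie in a 31-base word shared with another gene, here all 83. Words overlap, and only 15 of its 50 words (30.0%) are shared. Gm22745 (chr16:94869464-94869533, plus), one of another 3 loci with identical letters, is 14 copies of 5 bases, the first in capitals.
Gm22071: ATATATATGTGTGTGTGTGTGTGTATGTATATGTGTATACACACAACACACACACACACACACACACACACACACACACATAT
Gm22745: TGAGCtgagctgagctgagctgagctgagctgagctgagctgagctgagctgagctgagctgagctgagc

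Of the listed macrophage loci, the Mir221 and Mir222 pair, which encode regulators of the cell cycle inhibitor p27, had the highest counts in both libraries. Mir221 (chrX:19146294-19146388, minus) had 482 estimated counts in replicate 1 and 399 in replicate 2. Mir222, which lies 504 bases away on the same strand, had 212 and 205. After the libraries were scaled by the median ratio over all 18522 genes past the same minimum, the log2 ratio of replicate 1 over replicate 2 was 0.53 for Mir221 and 0.30 for Mir222. Neither locus lies inside an annotated gene of another class on its strand. Mir221 was the higher of the pair in both libraries, also in tpm, with 625 and 146 against 254 and 82.6 for Mir222. Such tpm divides a count by the effective length given for the locus, not by its annotated length. In replicate 1 the effective length was 24.9 for Mir221, of 95 bases, and 27.0 for Mir222, of 79.

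Mir511 lies in an intron of Mrc1, which encodes the macrophage mannose receptor CD206. It had 135 estimated counts in replicate 1 and 138 in replicate 2, while Mrc1 stood at 330 and 188 TPM in the gene tables. TPM, transcripts per 1000000, is a level divided by effective transcript length. The locus Mir6236 (chr9:110281287-110281409, plus), which has no same-strand host, had 231 counts in replicate 1 and 1573 in replicate 2, the largest difference of any locus with a Mir symbol, with a log2 ratio of -2.51.

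The cluster of Mir23a and Mir27a on chromosome 8, where the hairpins are 79 bases apart, was counted at both hairpins. Mir23a had 99 estimated counts in replicate 1 and 89 in replicate 2, and Mir27a had 30 and 48. The third hairpin of this cluster, Mir24-2, had 11 and 18 and so missed the minimum. The paralogous Mir23b, in an intron of 2010111I01Rik, had 43 and 77, whereas its cluster partners Mir27b and Mir24-1 had 0 in both libraries. Mir27b and Mir24-1 lie in an exon of that host, and each of their 31-base words is also in the host's transcripts.

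Mir29a, whose family is known to act on collagen messages, had 48 estimated counts in replicate 1 and 63 in replicate 2. Its neighbour Mir29b-1 had 17 and 30, just under the minimum. Mir15a, in an intron of Dleu2 and known for targeting the survival factor Bcl2, had 31 and 43, and its cluster partner Mir16-1 had 1 and 6. On the tpm scale, too, Mir29a was above Mir29b-1 in replicate 1, with 55.9 against 21.9 tpm, and Mir15a above Mir16-1, with 36.5 against 1.24 tpm.

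Of a list of 70 macrophage and Toll-like receptor microRNA loci, 8 were among the 184 (11.4%, against 2.98% of all loci with a Mir symbol, as the listed ones have, and 14.5% of those with another symbol). The listed loci beyond these 8 that came nearest were Mir342, with 18 and 28 estimated counts, Mir29b-1, and Mir146, a brake on Toll-like receptor signalling, with 13 and 26. Another 15 listed loci were above 0 in at least 1 library, of which Mir24-2 was the highest and Mir212, with 4 and 10, and Mirlet7g, with 0 and 10, came next. The remaining 44 had 0 in both libraries, and all 70 had 0 expected counts in both gene tables. Listed microRNA loci of other cells, such as muscle, neuron, erythroid and epithelial ones, matched 40 names, and none was among the 184. Mir9-1, Mir9-2, Mir9-3 and Mir126a stand on both lists, all 4 at 0 in both libraries. Of the 40 loci of other cells, 33 were at 0 in both libraries, 13 of the 33 with every word in another gene, and the highest value was 7 estimated counts, for Mir133a-1. Their summed level was 8 counts in replicate 1 and 12 in replicate 2, against 1158 and 1210.5 over the 70 loci of the macrophage list. Mir221 alone gave 482 and 399 of the latter. The lists differ in size, and both these sums and the 11.4% rest on the counts that the rule used. They are a description and do not show a cell type.

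**Figure D1:**
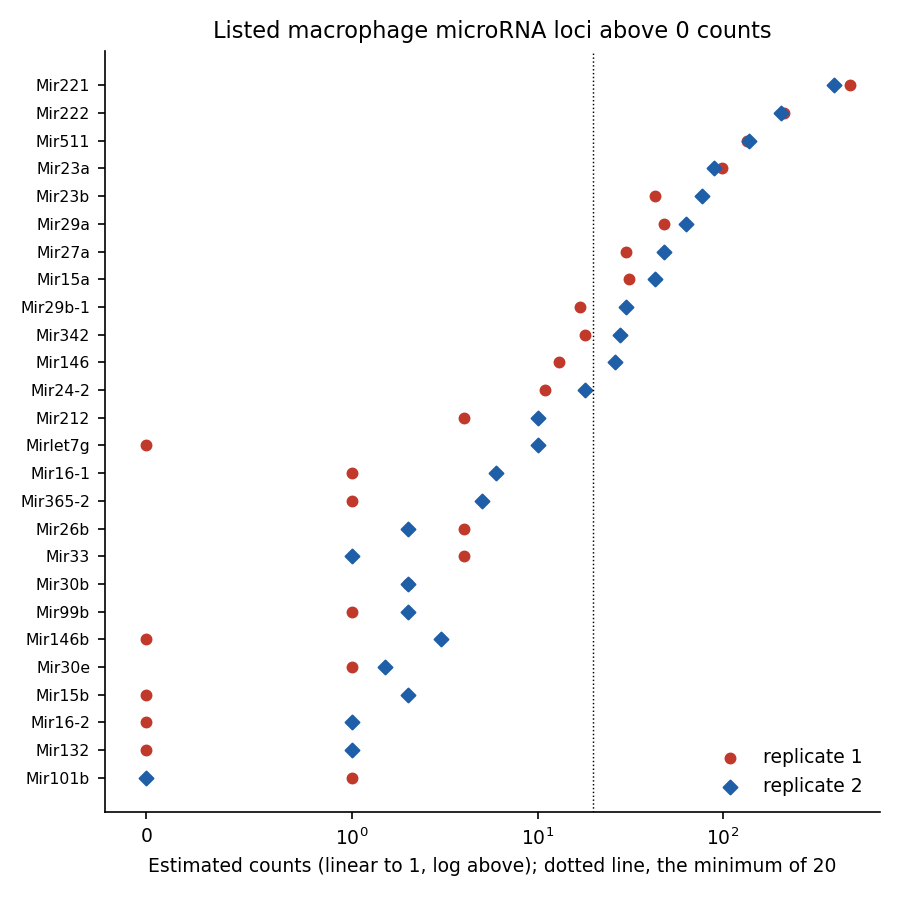
Estimated counts (horizontal axis, linear to 1 and logarithmic above) of the 26 listed macrophage microRNA loci above 0 in at least 1 library, 1 row per locus. Circles are replicate 1, diamonds replicate 2, and the dotted line is the minimum of 20 counts, which 8 loci passed in both libraries, from Mir221 at 482 and 399 down to Mir15a at 31 and 43.

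Some of the best known macrophage microRNA loci were at 0. Mir155, a microRNA induced through Toll-like receptors, had 0 estimated counts in both libraries, while its host Mir155hg had 358 TPM in replicate 1 and 228 in replicate 2. Mir21a was at 0 with its host Vmp1 at 506 and 351 TPM, and Mir223 was at 0 with F630028O10Rik at 88.7 and 35.3 TPM. Mir22 was at 0 with Mir22hg at 242 and 215 TPM. What these loci have in common is position: each lies in an exon of its host, so its hairpin letters are part of a longer annotated transcript.

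Of the 44 listed loci at 0, 30 had every 31-base word in a transcript of another gene, and the host of 21 of the 30 was at 1 TPM or more in both gene tables. Over all microRNA loci under the minimum, 278 lay in a host exon with every word shared, and 270 of them (97.1%) had 0 estimated counts in both libraries. The share was as high where the host was at 1 TPM or more, with 152 of 158 loci (96.2%) at 0. A 0 at such a locus therefore does not say that the hairpin was not transcribed. The remaining 14 listed loci at 0 had words of their own, and 13 of the 14 shared none, among them Mir187, Mir210 and Mir125b-2, whose host Mir99ahg had 55.6 and 32.6 TPM.

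The contrast between an exonic and an intronic hairpin is seen in the sequences as annotated in GENCODE M21. Capitals mark both mature strands, miR-155-5p and miR-155-3p, in Mir155, but miR-511-3p alone in Mir511. All 35 words of Mir155 (chr16:84714140-84714204, plus) are also in Mir155hg, whereas none of the 49 of Mir511 (chr2:14261003-14261081, plus) is in another transcript.
Mir155: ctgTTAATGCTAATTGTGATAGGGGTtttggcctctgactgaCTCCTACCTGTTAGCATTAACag
Mir511: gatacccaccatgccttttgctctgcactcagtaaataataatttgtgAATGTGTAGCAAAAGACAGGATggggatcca

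Mir142, a hematopoietic microRNA locus, was also at 0, but the locus annotated opposite it was counted. Mir142b (chr11:87756841-87756955, minus) had 181 estimated counts in replicate 1 and 239 in replicate 2. All 64 bases of Mir142 are the reverse complement of the stretch in capitals, so reads over that stretch fit both loci unless strand was used, and the strand setting is not given in the sources used here. Mir142hg, the host on the strand of Mir142, had 10.2 TPM in replicate 1 and 46.0 in replicate 2. Mir142b was also the highest of the 184 in expected counts, with 0 in replicate 1 and 5 in replicate 2.
Mir142b: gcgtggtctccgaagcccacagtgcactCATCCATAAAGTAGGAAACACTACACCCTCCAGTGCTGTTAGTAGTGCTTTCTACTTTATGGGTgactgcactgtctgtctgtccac

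Position in a host was not part of the rule. Of the 184 loci, 69 (37.5%) lay wholly inside a same-strand gene of another class, 65 of them without touching its exons, against 1110 of 2018 loci under the minimum (55.0%). The 3 that lay wholly in a host exon were Gm25315 in Baz1b, Gm24605 in Rdh13 and Gm25603 in A730043L09Rik. Mir1907 in Trps1 was partly exonic. Of the others, 37 lay inside a gene on the opposite strand alone and 78 in no other gene. Hosting differed with symbol. Among Mir symbols 22 of 35 had a same-strand host, against 791 of 1139 under the minimum, and among Gm symbols of the 184 47 of 149. The mix of symbols differs between the sets, so 37.5% and 55.0% do not compare like with like. An exonic position was rare among the 184, with 4.35% of hosted loci wholly exonic, against 24.0% of the hosted loci under the minimum. This rarity is not separate from the rule, which used estimated counts. Of 278 loci under the minimum in a host exon with every word shared, 270 had 0 such counts in both libraries.

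The hosts differed with the kind of locus. Among the 39 loci with no 31-base word in another gene, 23 had a host, and 22 of those hosts (95.7%) were at 1 TPM or more in both gene tables, the exception being Zfp791, host of Gm23388. For the 888 loci under the minimum with no shared word, 290 of 528 hosts (54.9%) were. The median host level was 94.9 TPM in replicate 1 and 63.4 in replicate 2 over the 23 hosts, against 2.17 and 1.62 TPM over the 528. The rule used the counts of the loci, which may include reads of the host's intron, so the host level is not a fully separate measure.

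Hosts in this set that were picked as examples include genes of macrophage adhesion and signalling. Itga5, the fibronectin receptor subunit that holds Mir6963, had 343 TPM in replicate 1 and 250 in replicate 2, and Mir6963 itself had 30 and 88 estimated counts. Slamf7, a receptor of the SLAM family, holds Mir7683, with 282 and 173 TPM for the host and 45 and 75 counts for the locus. Il10ra, the receptor for interleukin 10, holds Mir7086, with 103 and 65.1 TPM and 21 and 48 counts. All 3 loci had more counts in replicate 2. After scaling to all genes the log2 ratio of replicate 1 over replicate 2 was -1.30 for Mir6963, past 2-fold, and -0.94 for Mir7086 and -0.48 for Mir7683, within it.

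Hosts that most cells express were among them too. Hnrnpk, an RNA-binding protein, holds Mir7-1, which had 99 estimated counts in replicate 1 and 49 in replicate 2, and Srrm2, a splicing factor, holds Mir5125, with 62 and 150. Mir1938, which shares 34.3% of its words with 1 other gene, lies in Ifrd1, the highest host of the 69 at 1977 and 510 TPM, and had 95 and 276 counts. In estimated counts, the measure used for the locus, Ifrd1 had 34548 in replicate 1 and 25839 in replicate 2. Host and locus thus did not order the libraries alike for Mir1938, whose log2 ratio was -1.29.

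Across the 69 hosted loci, Spearman's rho between mean log2 counts of the locus and mean log2(TPM + 1) of the host was 0.067, a description over points that share 2 libraries. It was 0.21 over the 23 without a shared word. When set on the tpm scale of the estimated counts, 54 of the 69 were above their host in both libraries. On that scale the short effective length of a locus divides its counts. Its median over the 184 was 24.0 bases in replicate 1 and 15.7 in replicate 2.

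**Figure D2:**
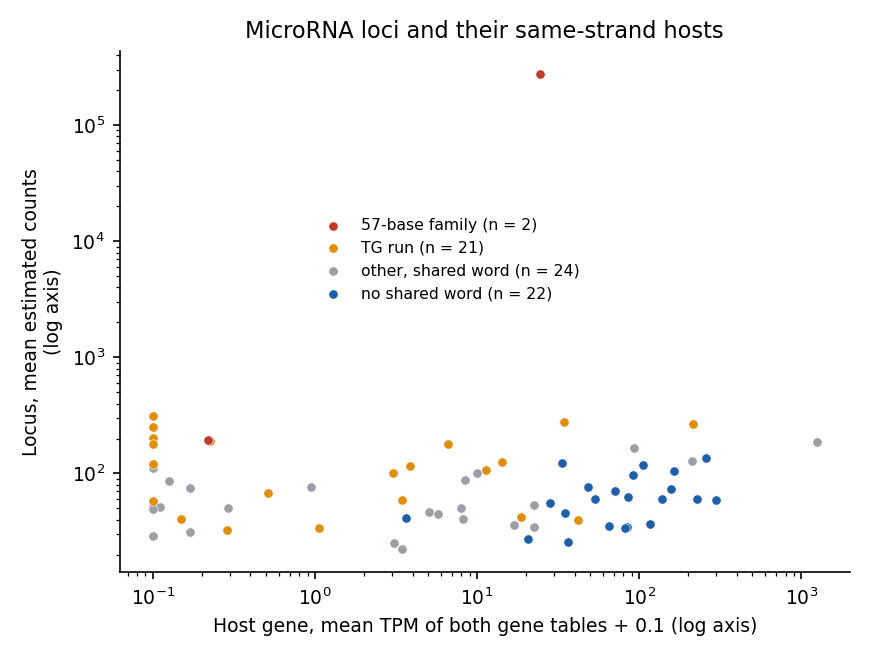
Mean estimated counts of the 69 hosted loci (vertical, log axis) against the mean TPM of the host in the gene tables plus 0.1 (horizontal, log axis), 1 point per locus, coloured by sequence class. The loci with no shared word outside the 57-base family lie to the right, with all 22 hosts at 1 TPM or more, and the points show no common slope.

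The 3 identical loci Gm23935, Gm24270 and Gm24245 held most of the counts of the class. Each had 28589 estimated counts in replicate 1 and 517927 in replicate 2, and reads of identical letters cannot be assigned to 1 of them. Together they took 85767 counts in replicate 1, or 0.436% of all estimated counts (95% Wilson interval 0.433% to 0.439%), and 1553780 in replicate 2, or 5.36% (5.356% to 5.372%), counting error only. On the tpm scale their shares were 15.3% and 72.9%. The other 181 loci together held 0.112% and 0.0545% of estimated counts and 2.96% and 0.560% of tpm. In replicate 2, then, 1 sequence of 57 bases carried most of the tpm of the library.

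Near copies of that sequence leaned the same way. Gm24187 had 43.9 estimated counts in replicate 1 and 399 in replicate 2. It shares 16 of its 27 words (59.3%) with the 3 identical loci, so its counts may include shares of their reads. Gm23388, with 4 differences and no 31-base word in common with any other transcript, had 30 and 359. The scaled log2 ratio of replicate 1 over replicate 2 was -3.93 for each of the 3 identical loci, -3.33 for Gm23388 and -2.93 for Gm24187. These 5 had the lowest ratios of the 184, followed by Mir6236 at -2.51. Of the sequence's bases 73.7% are G or C, and no transcript outside the microRNA class holds a 31-base word of it. The ribosomal RNA repeat, which depletion is meant to remove, was not compared with it here.

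The share that these copies took moved the tpm of other genes between the libraries. The median log2 ratio of replicate 1 over replicate 2 over the 18522 genes past the minimum was -0.25 in estimated counts and 2.29 in tpm. With tpm rescaled to the 84.7% and 27.1% outside the 3 identical loci, the median was 0.65. Levels on this tpm scale are thus not comparable between the libraries, and after this step the median still differed from the -0.25 in counts. For that reason the replicates are compared in counts.

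Loci with TG repeats leaned the other way. A run of 6 TG units, searched on both strands and so counting CA runs, was in 61 of the 184 loci (33.2%), against 83 of the 2018 loci under the minimum (4.11%). This feature was looked for after the replicate ratios had been seen. The mix of symbols differs between the sets here too, and 1 of the 61 has a Mir symbol. The rule used counts that may include reads shared with repeats elsewhere, so the 33.2% is not separate from it. All 61 had a positive scaled log2 ratio of replicate 1 over replicate 2, of 0.36 to 3.42 with a median of 1.78, and 50 were more than 2-fold higher in replicate 1. Without the run, 16 of 123 were more than 2-fold higher in replicate 1 and 13 more than 2-fold lower, with a median of 0.023.

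The 4 largest ratios in this direction came from Gm22071 with 326 estimated counts in replicate 1 and 36.2 in replicate 2, Gm26043 with 216 and 24.7, Gm44299 with 330 and 38.0, and Gm24605 with 185 and 28.1. By the mean of both libraries, the highest in this class were Gm22406, with 826 and 180, and Gm25063, with 771 and 165. The others of this class among the 15 highest of all 184 by that mean were Gm23086 with 630 and 98.7, Gm44339 with 519 and 102, Gm22032 with 427 and 200, Gm25000 with 401 and 266, Gm23237 with 384 and 246, and Gm22690, in an intron of the kinase gene Ripk2, with 348 and 209. In replicate 2 alone the highest of the class was Gm25000. Outside the class Gm27864, also among the 15, had 675 and 287. Every locus with the TG run shares a word with another gene, so its count may include shares of reads that fit elsewhere as well. The extent differs, from 1 of 40 words in Gm25071 to all 56 in Gm24605. Of the 61, 52 had a word in common with 100 or more other genes.

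The ratio differed with sharing as well. Its median was -0.13 over the 39 loci with no shared word, 0.085 over 30 that share with 1 to 9 other genes, 0.42 over 27 that share with 10 to 99, and 1.23 over 88 that share with 100 or more. The TG run and sharing overlap, and these bands were set after the ratios had been seen. Among the 88 loci that share a word with 100 or more other genes, the 52 with the TG run had a median log2 ratio of 1.88 and the 36 without it -0.06. Among loci that share with 10 to 99 genes the medians were 1.09 for 7 with the run and 0.32 for 20 without. The parts of the run and of sharing were not tested. Input RNA also differed between the libraries, and its part in these ratios was not tested and cannot be told apart from that of the replicate.

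**Figure D3:**
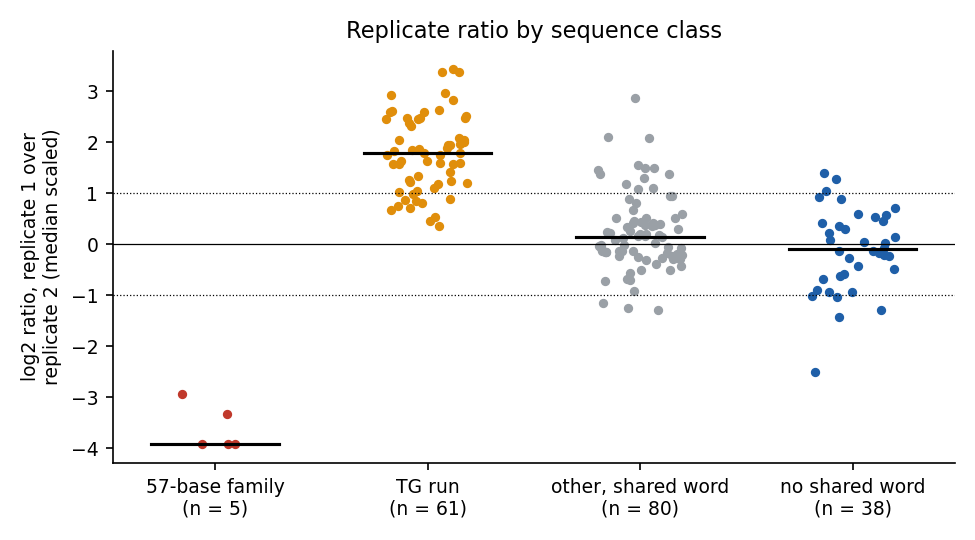
Scaled log2 ratio of estimated counts, replicate 1 over replicate 2, for each of the 184 loci by sequence class, with bars at the class medians of -3.93, 1.78, 0.15 and -0.10. Dotted lines mark 2-fold. The 5 loci of the 57-base family lie below and 50 of the 61 with a TG run above those lines, while most others lie between them.

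Over all 184 loci the median scaled log2 ratio was 0.45, against 0 over all genes by construction. More than 2-fold higher in replicate 1 were 66 (35.9%), against a background of 7.25% of all genes past the minimum, and more than 2-fold lower were 13 (7.07%), against 3.39%. The other 105 (57.1%) were within 2-fold. The lean to replicate 1 was not limited to these loci: the 2994 genes of other classes past the minimum that were at 0 expected counts in both libraries had a median of 0.48, and 707 of them (23.6%) were more than 2-fold higher in replicate 1. Of the 30 loci with a Mir symbol and no shared word, 23 were within 2-fold, 3 were more than 2-fold higher in replicate 1 and 4 more than 2-fold lower. The 8 listed macrophage loci were among the 23. Estimated counts were whole numbers, within 0.001, in both libraries for all 39 loci with no shared word, and not whole for 137 of the 145 with one.

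**Figure D4:**
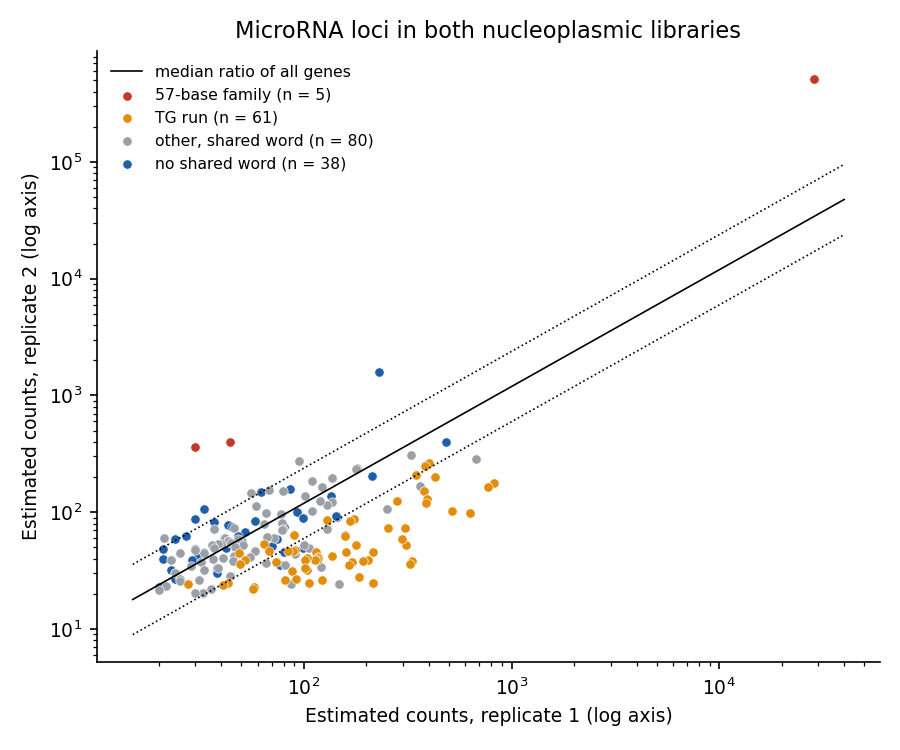
Estimated counts of the 184 loci in replicate 1 (horizontal) and replicate 2 (vertical), both on log axes, 1 point per locus coloured by sequence class. The solid line is the median ratio of all 18522 genes past the minimum, the dotted lines are 2-fold from it, and the 3 identical loci coincide at 28589 and 517927 counts.

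The other deposited quantification gave almost no counts to the same loci. Its gene tables hold expected counts, reads shared out among transcripts after alignment to them. The 184 loci held 107836 estimated counts in replicate 1 and 1569561 in replicate 2, against 2 and 14 expected counts. At 0 expected counts in both libraries were 176 of the 184 (95.7%), against a background of 17.1% over the 18522 genes past the minimum. The gene tables give an effective length of 0 to 175 loci in replicate 1 and to 145 in replicate 2, and a TPM above 0 to 1 locus and to 5 loci. All 184 are shorter than 250, the lower end of the labelled fragment range, whose unit is not given.

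Short genes of other classes were often at 0 as well. Of 167 genes of other classes past the minimum and no longer than 204 bases, 87 (52.1%) were at 0 expected counts in both libraries, against 2890 of the 18135 genes of 250 bases or more (15.9%). The 8 loci above 0 were 110 to 171 bases long. Besides Mir142b they were Gm44458 with 1 and 3 expected counts, Gm22118 with 0 and 2, Mir6541 with 1 and 0, and Mir6353, Mir3473g, Mir8091 and Gm27634 with 0 and 1 each. The median log2 ratio of estimated over expected counts, with 1 added to both, was 6.08 over the 184 and 0.92 over all genes past the minimum. That ratio rests on the added 1, since most expected counts were 0.

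**Figure D5:**
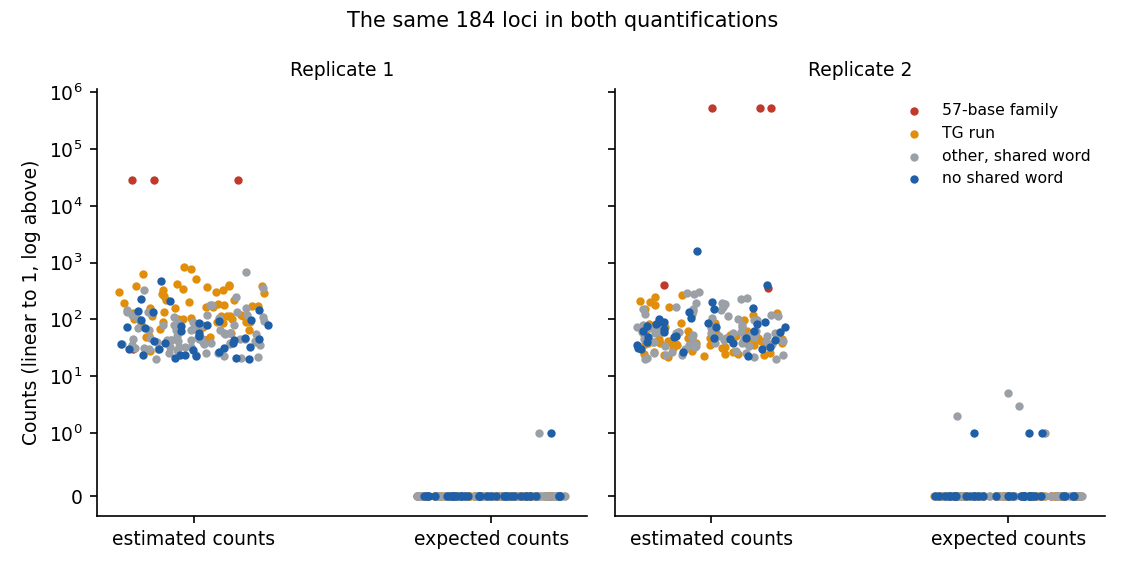
Counts of the 184 loci (vertical, linear to 1 and logarithmic above) in the table of estimated counts and in the gene table of expected counts, for replicate 1 (left) and replicate 2 (right), 1 point per locus spread sideways. Estimated counts range from 20 upwards in both panels, and expected counts are 0 but for 2 loci in replicate 1 and 7 in replicate 2.

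Gm22119 (chrY:2446010-2446108) was the single locus of the 184 on the Y chromosome, with 91.2 estimated counts in replicate 1 and 26.6 in replicate 2. Genes known from the Y chromosome, namely Kdm5d, Uty, Eif2s3y and Ddx3y, had 0 expected counts in both gene tables, yet 374, 387, 24.0 and 31.4 estimated counts in replicate 1 and 355, 134, 23.0 and 27.2 in replicate 2. Gm22119 holds a TG run and shares words with 2802 other genes. Its counts therefore do not show that the Y chromosome was present.

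Other loci lay close together. In B4galt1, which encodes a galactosyltransferase, Gm24112 had 32.0 estimated counts in replicate 1 and 37.5 in replicate 2 and Gm25931, 93 bases away, had 48.0 and 58.7. On chromosome 5, Gm23967 had 328 and 308, and Gm22395, on the same strand 5899 bases off, had 45.8 and 73.8. On chromosome 9, Gm44395 had 364 and 166, and Gm26231, on the opposite strand 4013 bases off, had 25.4 and 25.7. No 2 neighbours of these pairs had equal counts.

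The minimum itself separates values that are close. Just inside it by the lower library were Gm27299 with 20 estimated counts in replicate 1 and 23 in replicate 2, Gm26460 with 20.1 and 21.4, Gm24049 with 32.6 and 20.1, Gm27754 with 29.9 and 20.5, and Mir8091 with 21 and 40. Just outside were Mir8094 with 19.5 and 33.2, Gm24816 with 19.5 and 20.3, Gm23053 with 28.8 and 19.4, Gm22715 with 37.6 and 19.4, and Mirlet7c-1, of the let-7 family, with 19 and 22.

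The genes that make and use microRNAs were measured in the same nuclear RNA by the gene tables. Of 24 such genes matched from a list of 26 symbols, 22 reached 1 TPM in each library, against 54.5% of all genes past the minimum of estimated counts. Their median was 12.8 TPM in replicate 1 and 7.78 in replicate 2, against 2.30 and 1.42. Drosha, the nuclease of the nuclear step, had 4.70 and 3.07 TPM, Dgcr8, its RNA-binding partner, had 6.18 and 2.85, and the exporter Xpo5 had 2.17 and 1.62. These nuclear-step transcripts were low relative to Ddx5, a helicase that assists Drosha, at 441 and 269 TPM.

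Dicer1, which makes the last cut, had 9.55 TPM in replicate 1 and 3.38 in replicate 2. Among the Argonautes Ago3 was the highest, with 44.7 and 36.3 TPM, before Ago2, the one that cleaves its target, with 16.6 and 7.29, Ago1 with 6.68 and 4.19, and Ago4 with 3.37 and 1.53. Tut7, which adds uridines to precursors, had 114 and 46.8 TPM. Lin28a and Lin28b, which block let-7 processing, had 0 expected counts in both. Most of these values were higher in replicate 1, as was the median of all genes.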

How the data were processed

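Per the file headers, each library has a deposited transcript table with target_id, est_counts (estimated counts) and tpm columns, as kallisto writes them, and a deposited gene table with expected counts and TPM columns, as RSEM writes them. Build mm10 and annotation M21 are stated in readme files that the authors deposited. The sources used here give no program, version, trimming or strand setting.

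Transcript rows were summed per gene. The 97 spike-in rows name no gene and were left out. A locus was kept where every transcript has the class miRNA and both libraries have at least 20 estimated counts. The loci, the gene lists and the naming rule were chosen with earlier results of these data known. Named by that rule were the 15 highest loci, the 5 on either side of the minimum, the 4 largest replicate ratios in each direction, listed macrophage loci, clusters within 10 kb, and their hosts. Loci and hosts named beyond these, such as Mir6963 in Itga5 and Mir1938 in Ifrd1, were picked as examples outside the rule. A host is a same-strand gene of another class that holds the whole locus; with several, the one of highest TPM was taken. Words are all runs of 31 bases of a transcript, compared with all M21 transcripts on both strands. Bands of sharing were set after the values were seen. Replicate ratios were scaled by the median over all genes past the minimum; edgeR 4.0.16 and DESeq2 1.42.0, on rounded estimated counts, gave other scalings. No test was made. Scripts were tested on simulated data.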

Additional observations from a re-analysis of the deposited data

How the results depend on the processing

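A minimum of 50 estimated counts left 74 loci, 69 of them at 0 expected counts in both gene tables, 28 with a same-strand host, 30 more than 2-fold apart between the libraries, and a median log2 ratio of estimated over expected counts of 6.94. A minimum of 10 gave 119 hosted loci, and hosts on either strand gave 106. That median moved with the added count, to 7.07 with 0.5 and 3.89 with 5, and was 2.04 in counts per 1000000. With the minimum asked of 1 library, 218 loci qualified without replicate 1 and 234 without replicate 2. Over the 184 loci, leaving out replicate 1 and then replicate 2 gave 177 and 182 at 0 expected counts, a median ratio of estimated over expected counts of 5.69 and 6.32, and a rho of locus and host of 0.23 and -0.07.

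The median log2 ratio of replicate 1 over replicate 2 was 0.76 with total counts as scale and 2.26 in deposited tpm, where the median of all genes was 2.29. In alternatives chosen after seeing the data it was -0.13, the opposite sign, over the 39 loci with no shared word, 9 of them more than 2-fold apart, and 0.75 over the other 145. The replicate ratio therefore depends on which loci are counted. The other alternatives, among them TMM and DESeq2 scaling, stayed within 1.5 times of counts and within the spread of values. No paired analysis was possible because there is 1 group.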
